A study of Mus musculus with 12 samples.

Results

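The genes described here are markers of liver sinusoidal endothelial cells, the cells that line the capillaries of the liver. They form a list of 40 genes, of which 39 were found by symbol among the 25919 rows of the count table. The counts of Cldn5 were not analysed here. Enough counts for a test were present for 37 of the 39, and Erg and Vwf were below the filter on low counts. The samples are poly(A) RNA of C57BL/6 mouse liver, 7 weeks old by the labels, read in bulk from the 3′ end of transcripts. Of 12 libraries in the series, 6 were compared: 4 labelled CD40 at day 2, after a receptor of antigen-presenting cells, and 2 labelled Kupffer cells at day 0, after the resident macrophages of the liver. The labels name no genotype, treatment, sorting gate or starting event for the days. The submitters call the replicates biological without saying whether each was 1 animal, so p-values measure the spread between libraries. Cell label and day differ together between the groups, and the comparison describes both at once.

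Sinusoidal endothelial cells differ from other endothelium in having open pores and no organised basement membrane, and they clear waste macromolecules from blood through scavenger receptors. As other endothelium, they carry receptors for vascular endothelial growth factor (VEGF), angiopoietins and adrenomedullin, and they adhere through VE-cadherin and PECAM-1. In the mouse, the transcription factor Gata4 is needed for their sinusoidal character. Macrophages in the liver sit against these cells and share some of their receptors, such as the mannose receptor Mrc1 and the fatty acid receptor Cd36.

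The sinusoidal endothelial genes were abundant in the libraries labelled Kupffer cells and scarce in those labelled CD40. Together the 39 genes took 0.202%, 0.104%, 0.109% and 0.0892% of all counts in CD40 day 2 libraries a to d, against 4.27% and 4.52% in Kupffer day 0 libraries a and b. The 95% Wilson intervals, which cover counting error only, ran from 0.194% to 0.210% for CD40 day 2 a, from 0.0849% to 0.0937% for CD40 day 2 d and from 4.24% to 4.31% for Kupffer day 0 a. Within CD40 day 2, library a therefore held more of these transcripts than the other 3 libraries beyond counting error. In bulk RNA, fewer endothelial cells, less RNA per endothelial cell and a different part of these transcripts from other cells cannot be told apart.

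Each of the 37 genes tested was lower in CD40 day 2 by edgeR's quasi-likelihood test with Benjamini-Hochberg adjustment over 9852 genes and a threshold of 0.05. Of all genes tested, 30.2% were lower and 23.2% higher, 53.4% in either direction. The libraries of the groups did not overlap for 37 of 37 of these genes, with CD40 day 2 below Kupffer day 0, against 36.9% of all genes tested in that direction and 66.6% in either. Because the genes passed the filter through the libraries in which they are high, this count by itself is a description. The log2 fold changes ran from -6.12 for Emcn to -2.46 for Nrp2. By the ratio of group mean levels, Emcn was 70.6-fold lower and Nrp2 5.78-fold lower. The median log2 fold change of the 37 genes was -4.99, where the median of all genes tested was -0.10. Without CD40 day 2 a, the median of these genes was -5.65. The fall was under 3 on the log2 scale for 2 genes, from 3 to under 4 for 5, from 4 to under 5 for 12, from 5 to under 6 for 17 and above that for 1. With 4 libraries against 2, the 15 splits allow no exact permutation p below 0.0667, so the calls rest on the spread shared across genes in the model (biological coefficient of variation 20.4%). When Kupffer day 0 a was left out, 3206 of all genes were called in place of 5262, and the 37 genes described here remained lower.

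**Figure D1:**
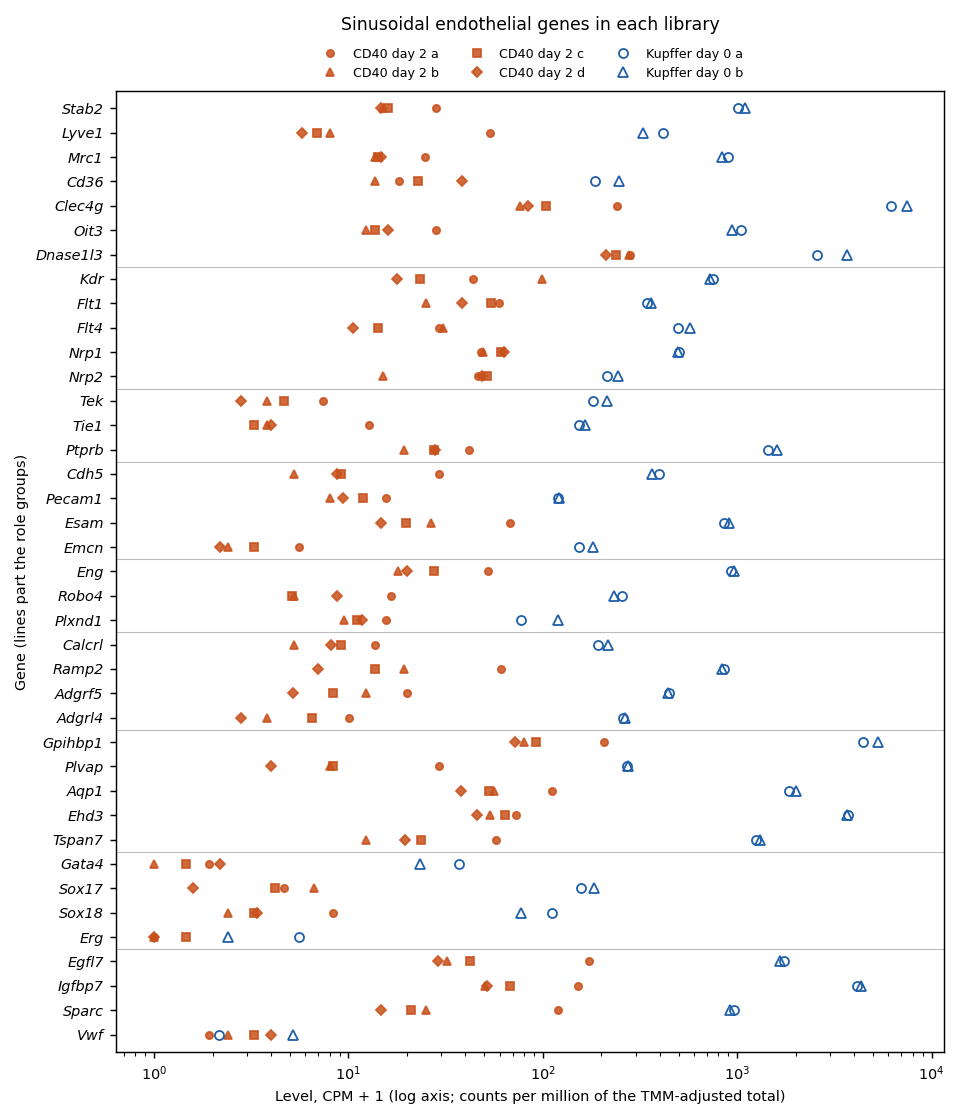
Level of each of the 39 genes in every library, on a log axis of CPM plus 1, with CD40 day 2 in filled symbols and Kupffer day 0 in open ones; grey lines part the role groups. Filled and open symbols do not overlap for any gene but Vwf, and CD40 day 2 a is often the rightmost filled symbol, as for Lyve1 at 52.8 CPM.

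Depth and the makeup of the libraries bear on every value below. Total counts ran from 725683 to 2271228 in CD40 day 2 and were 1612435 and 688498 in Kupffer day 0. Markers of other cell types moved between the groups as well, and their part in the results was not tested. The 10 Kupffer cell markers took 0.00882% to 0.0109% of counts in CD40 day 2, against 0.445% to 0.519% in Kupffer day 0, with 9 of 10 lower in CD40 day 2 and none at 0 in every library. The 12 stellate cell and fibroblast markers took 0.00345% to 0.0124% against 0.153% to 0.190%, with 10 of 10 tested lower. The 8 classical monocyte markers went the other way, at 1.30% to 1.77% against 0.137% to 0.158%, with 7 of 8 higher. In the libraries labelled Kupffer cells, the sinusoidal endothelial genes held a larger share of counts than the Kupffer markers. The lists differ in length and in the genes chosen, so these shares do not compare the amounts of the cell types. Levels below are CPM, counts scaled to a common library total after TMM adjustment (trimmed mean of M values), given for CD40 day 2 in the order of libraries a to d and for Kupffer day 0 with a before b. Counts come from transcript ends and are not divided by length, so levels are compared between libraries and not between genes. Gene positions are those of GENCODE release M21 on mouse build GRCm38.

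Of the scavenger and clearance genes, 7 of 7 fell, with a median log2 fold change of -5.77. Stab2 (chromosome 10, 86841198 to 87008025), the endothelial receptor that clears hyaluronan, was at 27.3, 14.1, 15.02 and 13.7 CPM in CD40 day 2, against 1009 and 1097 CPM in Kupffer day 0. The group means differed 60.0-fold (log2 fold change of the model -5.92, SE 0.25, with adjusted p = 3.22e-07), with CD40 day 2 a above the other 3. Oit3 (chromosome 10, 59422958 to 59441778), a secreted protein gene expressed by these cells in the mouse, was at 27.3, 11.3, 12.7 and 14.9 CPM in CD40 day 2, against 1041 and 944 CPM in Kupffer day 0. Oit3 also stood highest in CD40 day 2 a (log2 fold change -5.91, SE 0.27, with adjusted p = 4.57e-07). Clec4g (chromosome 8, 3707064 to 3720651), the lectin LSECtin, was at 241, 75.0, 102 and 83.4 CPM in CD40 day 2, against 6216 and 7456 CPM in Kupffer day 0. For Clec4g, library a held 3.53% of the Kupffer day 0 mean where b, c and d held 1.10%, 1.498% and 1.2199% (log2 fold change -5.77, SE 0.42, with adjusted p = 3.94e-06). Mrc1 (chromosome 2, 14229392 to 14332057), the mannose receptor that macrophages also express, was at 23.7, 12.7, 13.2 and 13.7 CPM in CD40 day 2, against 899 and 833 CPM in Kupffer day 0. Libraries b, c and d of CD40 day 2 lay close together for Mrc1, below a (log2 fold change -5.78, SE 0.23, with adjusted p = 2.37e-07).

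The remaining genes of this group did not follow a single order of libraries. Lyve1 (chromosome 7, 110850607 to 110863239), a hyaluronan receptor of sinusoidal and lymphatic endothelium, was at 52.8, 7.07, 5.92 and 4.77 CPM in CD40 day 2, against 416 and 327 CPM in Kupffer day 0. Its CD40 day 2 a value was far above the other 3, and the difference between groups (log2 fold change -4.50, SE 0.68, with adjusted p = 0.000382) became -6.00 without that library. Cd36 (chromosome 5, 17781690 to 17888801), a fatty acid and thrombospondin receptor that macrophages and platelets also carry, was at 17.3, 12.7, 21.8 and 37.5 CPM in CD40 day 2, against 185 and 247 CPM in Kupffer day 0. Here CD40 day 2 d, not a, was the highest of its group (log2 fold change -3.18, SE 0.31, with adjusted p = 2.43e-05). Dnase1l3 (chromosome 14, 7964533 to 7994573), a secreted nuclease that digests chromatin in blood, was at 279, 277, 236 and 209.7 CPM in CD40 day 2, against 2569 and 3688 CPM in Kupffer day 0. Its 4 CD40 day 2 values were within 1.33-fold of each other, and 6.70% to 8.90% of the Kupffer day 0 mean remained (log2 fold change -3.65, SE 0.19, with adjusted p = 8.93e-07).

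The VEGF receptors and neuropilins fell in 5 of 5 cases with a median of -3.17, and 3 of the 4 smallest falls of the list are here. Kdr (chromosome 5, 75932827 to 75978458), VEGF receptor 2 and the main signalling receptor for VEGF-A, was at 42.8, 97.6, 22.3 and 16.7 CPM in CD40 day 2, against 752 and 724 CPM in Kupffer day 0. CD40 day 2 b was the high library for Kdr and d the low one, 5.85-fold apart, and the groups did not overlap (log2 fold change -4.18, SE 0.50, with adjusted p = 9.45e-05). Flt4 (chromosome 11, 49609263 to 49652739), VEGF receptor 3 for VEGF-C and VEGF-D, was at 28.2, 29.7, 13.2 and 9.53 CPM in CD40 day 2, against 492 and 572 CPM in Kupffer day 0. Libraries a and b stood together above c and d (log2 fold change -4.84, SE 0.34, with adjusted p = 3.63e-06). Flt1 (chromosome 5, 147561604 to 147726011), VEGF receptor 1, which binds VEGF-A and is also found on monocytes, was at 58.3, 24.0, 53.3 and 37.5 CPM in CD40 day 2, against 342 and 358 CPM in Kupffer day 0. For Flt1 library b was the lowest, and 6.88% to 16.7% of the Kupffer day 0 mean remained (log2 fold change -2.98, SE 0.26, with adjusted p = 1.24e-05).

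Nrp1 (chromosome 8, 128358604 to 128503363), a co-receptor for VEGF and class 3 semaphorins found on many cell types, was at 47.3, 48.1, 59.6 and 62.0 CPM in CD40 day 2, against 499 and 493 CPM in Kupffer day 0. Its CD40 day 2 values were nearly level, within 1.31-fold, and d was the highest (log2 fold change -3.17, SE 0.17, with adjusted p = 8.93e-07). Nrp2 (chromosome 1, 62703285 to 62818695), the partner of VEGF receptor 3, was at 45.5, 14.1, 50.5 and 47.7 CPM in CD40 day 2, against 214 and 242 CPM in Kupffer day 0. It had the smallest fall of the genes tested, and library b lay far below the other 3 (log2 fold change -2.46, SE 0.32, with adjusted p = 0.000148). The median remaining level over the 5 genes of this group was 9.54% of the Kupffer day 0 mean in CD40 day 2 a, 6.88% in b, 12.02% in c and 10.7% in d, so that library a was not the highest here.

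The ligands and partners of these receptors were sparse. Of 16 listed genes, 15 were in the table and 8 were tested, of which 6 were lower and 2 not called, with a median of -3.74. Vegfb, a ligand of VEGF receptor 1, was at 6.37, 7.07, 5.46 and 6.55 CPM in CD40 day 2, against 48.2 and 43.2 CPM in Kupffer day 0 (log2 fold change -2.87, SE 0.26, with adjusted p = 1.62e-05). Plxna2, a semaphorin receptor that pairs with neuropilins, was at 0.910, 1.41, 0.910 and 1.19 CPM in CD40 day 2, against 45.9 and 51.5 CPM in Kupffer day 0 (log2 fold change -5.40, SE 0.35, with adjusted p = 2.07e-06). Vegfa, the ligand of VEGF receptors 1 and 2, overlapped between the groups at 15.5, 9.90, 11.4 and 8.94 CPM in CD40 day 2, against 12.1 and 8.36 CPM in Kupffer day 0. Neither Vegfa (log2 fold change 0.09, SE 0.38, with adjusted p = 0.935) nor Plxna1, another neuropilin partner (log2 fold change 0.10, SE 0.48, with adjusted p = 0.884), passed the threshold.

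The angiopoietin receptor group fell in 3 of 3 cases, with a median of -5.73. Tek (chromosome 4, 94739289 to 94874976), the angiopoietin receptor Tie2, was at 6.37, 2.83, 3.64 and 1.79 CPM in CD40 day 2, against 179 and 212 CPM in Kupffer day 0, which corresponds to 7, 2, 8 and 3 counts in CD40 day 2. At this depth the CD40 day 2 values of Tek rest on few counts each, all far below either Kupffer day 0 library (log2 fold change -5.74, SE 0.29, with adjusted p = 7.45e-07). Tie1 (chromosome 4, 118471191 to 118490061), its orphan partner, was at 11.8, 2.83, 2.28 and 2.98 CPM in CD40 day 2, against 152 and 164 CPM in Kupffer day 0. CD40 day 2 a was high and the other 3 were level, and the difference (log2 fold change -5.09, SE 0.41, with adjusted p = 6.84e-06) became -5.86 without library a. Ptprb (chromosome 10, 116275523 to 116389535), the endothelial phosphatase VE-PTP that acts on Tie2 and VE-cadherin, was at 41.0, 18.4, 26.4 and 26.8 CPM in CD40 day 2, against 1435 and 1602 CPM in Kupffer day 0. All 4 CD40 day 2 libraries held 1.21% to 2.70% of the Kupffer day 0 mean (log2 fold change -5.73, SE 0.24, with adjusted p = 3.22e-07).

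Of the junction and adhesion genes, the 4 in the table all fell, with a median of -4.93. Cdh5 (chromosome 8, 104101625 to 104144511), VE-cadherin of endothelial junctions, was at 28.2, 4.24, 8.19 and 7.74 CPM in CD40 day 2, against 394 and 365 CPM in Kupffer day 0. Library a of CD40 day 2 was the highest and b the lowest, 6.65-fold apart, and without a the difference (log2 fold change -4.99, SE 0.43, with adjusted p = 1.07e-05) became -5.68. Esam (chromosome 9, 37528078 to 37538319), a tight junction protein of endothelium and platelets, was at 66.4, 25.5, 18.7 and 13.7 CPM in CD40 day 2, against 851 and 907 CPM in Kupffer day 0. The same library stood out for Esam (log2 fold change -4.88, SE 0.46, with adjusted p = 1.89e-05; -5.57 without it). Emcn (chromosome 3, 137341067 to 137432185), the sialomucin endomucin, was at 4.55, 1.41, 2.28 and 1.19 CPM in CD40 day 2, against 153 and 179.7 CPM in Kupffer day 0, from 5, 1, 5 and 2 counts in CD40 day 2. Emcn had the largest fall of the list, and 13 counts in all remained in CD40 day 2 (log2 fold change -6.12, SE 0.31, with adjusted p = 6.67e-07). Pecam1 (chromosome 11, 106654217 to 106750628), CD31, which leukocytes and platelets carry too, was at 14.6, 7.07, 10.9 and 8.34 CPM in CD40 day 2, against 118 and 119.8 CPM in Kupffer day 0. The Kupffer day 0 libraries differed by less than 2 CPM for Pecam1, and 5.94% to 12.2% of their mean remained (log2 fold change -3.51, SE 0.24, with adjusted p = 2.94e-06).

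The TGF-beta co-receptor and guidance receptors fell in 3 of 3 cases, with a median of -4.98. Eng (chromosome 2, 32646595 to 32682669), endoglin, a co-receptor for BMP9 and TGF-beta, was at 51.0, 17.0, 26.4 and 19.1 CPM in CD40 day 2, against 923 and 961 CPM in Kupffer day 0. Library a held 5.41% of the Kupffer day 0 mean and the other 3 held 1.80% to 2.80% (log2 fold change -5.05, SE 0.33, with adjusted p = 2.11e-06). Robo4 (chromosome 9, 37401897 to 37415115), an endothelial receptor that stabilises vessels, was at 15.5, 4.24, 4.10 and 7.74 CPM in CD40 day 2, against 253 and 233 CPM in Kupffer day 0. For Robo4, CD40 day 2 a was the highest, d the next, and b and c the lowest (log2 fold change -4.98, SE 0.35, with adjusted p = 3.14e-06). Plxnd1 (chromosome 6, 115954811 to 115995005), the plexin receptor for semaphorin 3E, was at 14.6, 8.49, 10.01 and 10.7 CPM in CD40 day 2, against 75.8 and 118 CPM in Kupffer day 0. The CD40 day 2 values of Plxnd1 were close together while the Kupffer day 0 values differed more (log2 fold change -3.11, SE 0.27, with adjusted p = 1.13e-05).

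**Figure D2:**
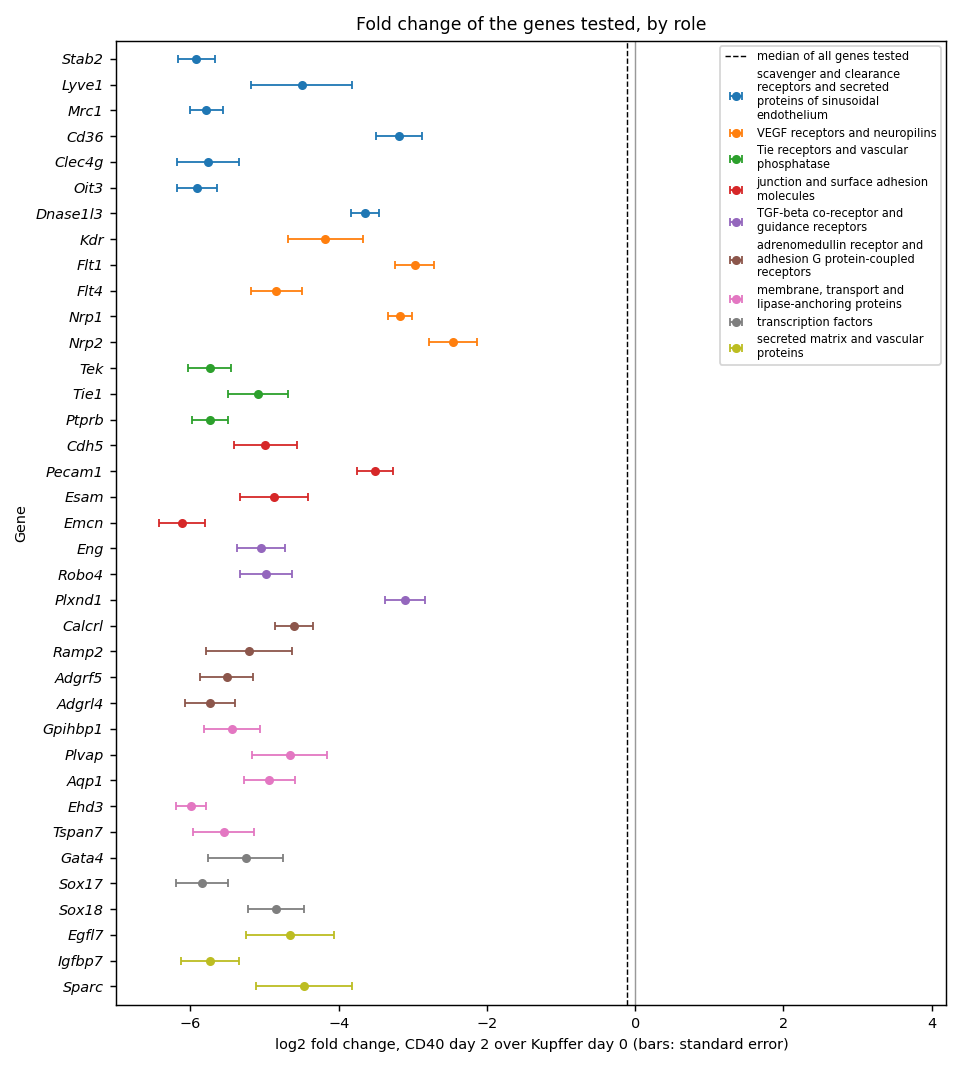
Log2 fold change of CD40 day 2 over Kupffer day 0 (horizontal axis) for the 37 genes tested, coloured by role, with bars of 1 standard error; the dashed line is the median of all genes tested, -0.10. Values run from -6.12 for Emcn to -2.46 for Nrp2, with the neuropilins, Flt1, Cd36, Plxnd1, Pecam1 and Dnase1l3 nearest to 0.

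BMP9, the main ligand of endoglin, signals through the receptor Acvrl1 (ALK1) to the Smad and Id genes. Of 12 listed genes of that pathway, 10 were tested, 8 were lower, 1 was higher and 1 was not called, with a median of -2.95. Id3, an inhibitor of basic helix-loop-helix factors and a BMP target, was at 24.6, 26.9, 12.7 and 21.4 CPM in CD40 day 2, against 242 and 226 CPM in Kupffer day 0 (log2 fold change -3.51, SE 0.25, with adjusted p = 3.45e-06). Smad6 and Smad7, inhibitors of the pathway, were lower too, Smad6 with a log2 fold change of -3.73 ± 0.28 SE (adjusted p = 4.77e-06) and Smad7 with -3.32 ± 0.30 SE (adjusted p = 1.37e-05). Acvrl1 itself overlapped between the groups at 52.8, 36.8, 23.2 and 32.2 CPM in CD40 day 2, against 39.6 and 40.4 CPM in Kupffer day 0, and was not called (log2 fold change -0.18, SE 0.31, with adjusted p = 0.661). Id2, which is broadly expressed in leukocytes, was the 1 gene that rose, at 498, 1000.2, 550.3 and 479 CPM in CD40 day 2, against 313 and 294 CPM in Kupffer day 0. CD40 day 2 b was the highest for Id2, and its call (log2 fold change 1.05, SE 0.30, with adjusted p = 0.0150) was lost without either Kupffer day 0 library (adjusted p = 0.0940 without a and 0.0948 without b).

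The adrenomedullin receptor and the adhesion G protein-coupled receptors fell in 4 of 4 cases, with a median of -5.36. Calcrl (chromosome 2, 84330626 to 84425411), the receptor that binds adrenomedullin with a RAMP partner, was at 12.7, 4.24, 8.19 and 7.15 CPM in CD40 day 2, against 192 and 216 CPM in Kupffer day 0. Library b was the lowest for Calcrl and a the highest (log2 fold change -4.61, SE 0.26, with adjusted p = 1.12e-06). Ramp2 (chromosome 11, 101246028 to 101259546), that partner in endothelium, was at 60.1, 18.4, 12.7 and 5.96 CPM in CD40 day 2, against 855 and 838 CPM in Kupffer day 0. Library a was 10.1-fold above library d, and the difference (log2 fold change -5.21, SE 0.58, with adjusted p = 5.62e-05) became -6.20 without a. Adgrf5 (chromosome 17, 43360451 to 43459557), an adhesion receptor of endothelium and lung epithelium, was at 19.1, 11.3, 7.28 and 4.17 CPM in CD40 day 2, against 447 and 437 CPM in Kupffer day 0. Adgrl4 (chromosome 3, 151437887 to 151545086), an endothelial adhesion receptor known as ELTD1, was at 9.10, 2.83, 5.46 and 1.79 CPM in CD40 day 2, against 256 and 263 CPM in Kupffer day 0. Adgrf5 (log2 fold change -5.51, SE 0.36, with adjusted p = 2.12e-06) and Adgrl4 (log2 fold change -5.74, SE 0.34, with adjusted p = 1.29e-06) were both highest in CD40 day 2 a and lowest in d.

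Of 5 listed partners of this receptor, 3 were tested, 2 lower and 1 higher. Adm, the ligand adrenomedullin, was at 3.64, 0, 1.37 and 1.19 CPM in CD40 day 2, against 64.9 and 66.8 CPM in Kupffer day 0 (log2 fold change -5.29, SE 0.41, with adjusted p = 5.81e-06). Ramp3, the other adrenomedullin partner, was lower with a log2 fold change of -2.78 ± 0.45 SE (adjusted p = 0.000590). Ramp1, which pairs with Calcrl into the receptor for calcitonin gene-related peptide, was higher, at 71.9, 87.7, 86.0 and 116 CPM in CD40 day 2, against 43.6 and 51.5 CPM in Kupffer day 0. The rise of Ramp1 (log2 fold change 0.95, SE 0.24, with adjusted p = 0.00742) did not pass the threshold without Kupffer day 0 a (adjusted p = 0.107).

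The membrane, transport and lipase-anchoring genes fell in 5 of 5 cases, with a median of -5.44. Gpihbp1 (chromosome 15, 75596628 to 75599481), the anchor of lipoprotein lipase on capillaries, was at 206, 79.2, 91.5 and 70.9 CPM in CD40 day 2, against 4411 and 5278 CPM in Kupffer day 0. Library a was high and the other 3 lay between 70.9 and 91.5 CPM (log2 fold change -5.44, SE 0.38, with adjusted p = 3.27e-06). Plvap (chromosome 8, 71497765 to 71511752), the protein of the diaphragms of endothelial pores, was at 28.2, 7.07, 7.28 and 2.98 CPM in CD40 day 2, against 269 and 273 CPM in Kupffer day 0. Its difference (log2 fold change -4.66, SE 0.50, with adjusted p = 4.57e-05) became -5.55 without CD40 day 2 a. Aqp1 (chromosome 6, 55336432 to 55348555), a water channel found on endothelium, bile duct cells and red cells, was at 111, 55.2, 51.9 and 36.9 CPM in CD40 day 2, against 1846 and 2015 CPM in Kupffer day 0. Library a stood highest for Aqp1 and d lowest (log2 fold change -4.94, SE 0.34, with adjusted p = 3.13e-06). Ehd3 (chromosome 17, 73804134 to 73832094), a membrane-trafficking ATPase, was at 71.9, 52.3, 63.3 and 44.7 CPM in CD40 day 2, against 3733 and 3673 CPM in Kupffer day 0. The CD40 day 2 libraries held 1.21% to 1.94% of the Kupffer day 0 mean for Ehd3, and its adjusted p was the smallest of the list (log2 fold change -5.99, SE 0.21, with adjusted p = 1.502e-07). Tspan7 (chromosome X, 10485158 to 10596605), a tetraspanin, was at 56.4, 11.3, 22.8 and 18.5 CPM in CD40 day 2, against 1248 and 1316 CPM in Kupffer day 0. Library a was again above the rest (log2 fold change -5.55, SE 0.41, with adjusted p = 4.60e-06).

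Among the transcription factors, the 3 tested of 4 fell, with a median of -5.25. Sox17 (chromosome 1, 4490931 to 4497354), a factor of arterial and other endothelium, was at 3.64, 5.66, 3.19 and 0.596 CPM in CD40 day 2, against 157 and 182 CPM in Kupffer day 0. The highest CD40 day 2 value of Sox17 was that of b, from 4 counts (log2 fold change -5.84, SE 0.35, with adjusted p = 1.42e-06). Sox18 (chromosome 2, 181669836 to 181671640), a relative of Sox17, was at 7.28, 1.41, 2.28 and 2.38 CPM in CD40 day 2, against 111 and 76.6 CPM in Kupffer day 0. CD40 day 2 a was the highest for Sox18, from 8 counts (log2 fold change -4.85, SE 0.38, with adjusted p = 6.37e-06). Gata4 (chromosome 14, 63198922 to 63271692), the factor needed for the sinusoidal state, had 1, 0, 1 and 2 counts in CD40 day 2, against 63 and 16 in Kupffer day 0. Its Kupffer day 0 mean was 29.2 CPM, below the 50 CPM from which the level in each library is given for the sinusoidal endothelial genes, and it was lower in CD40 day 2 (log2 fold change -5.25, SE 0.50, with adjusted p = 2.19e-05). Erg (chromosome 16, 95359169 to 95586593), an ETS factor of endothelium, had 0, 0, 1 and 0 counts in CD40 day 2 and 8 and 1 in Kupffer day 0. With no filter on low counts its log2 fold change was -3.73 ± 1.25 SE (adjusted p = 0.0118), from 1 and 9 counts in all.

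Of 19 other transcription factors of endothelium, 17 were tested, 14 were lower, 2 higher and 1 not called, with a median of -3.002. Epas1, the hypoxia-inducible factor 2 alpha, was at 7.28, 4.24, 5.01 and 7.15 CPM in CD40 day 2, against 362 and 383 CPM in Kupffer day 0 (log2 fold change -5.93, SE 0.21, with adjusted p = 1.60e-07). Nr2f2, a factor of venous endothelium, was at 2.73, 1.41, 2.73 and 4.77 CPM in CD40 day 2, against 156 and 249 CPM in Kupffer day 0 (log2 fold change -5.95, SE 0.32, with adjusted p = 8.93e-07). Ets1, an ETS factor also found in lymphocytes, was at 9.10, 5.66, 7.74 and 4.77 CPM in CD40 day 2, against 310.04 and 414 CPM in Kupffer day 0 (log2 fold change -5.70, SE 0.24, with adjusted p = 3.66e-07). Those that moved the other way are factors of blood cells too. Lyl1 was at 130.2, 94.8, 117 and 121 CPM in CD40 day 2, against 28.7 and 47.4 CPM in Kupffer day 0 (log2 fold change 1.67, SE 0.25, with adjusted p = 0.000379). Etv6 was at 66.4, 76.4, 83.3 and 43.5 CPM in CD40 day 2, against 19.5 and 27.9 CPM in Kupffer day 0, a rise (log2 fold change 1.56, SE 0.32, with adjusted p = 0.00258) that did not pass without Kupffer day 0 a (adjusted p = 0.0643). Lmo2, a partner of such factors, was not called (log2 fold change -0.35, SE 0.19, with adjusted p = 0.145), though it was with total counts in place of TMM scaling (log2 fold change -0.52, adjusted p = 0.0417).

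The secreted matrix and vascular genes fell in 3 of 3 tested cases, with a median of -4.65. Egfl7 (chromosome 2, 26580014 to 26593120), an extracellular matrix protein of endothelium, was at 172, 31.1, 41.4 and 28.0 CPM in CD40 day 2, against 1732 and 1663 CPM in Kupffer day 0. CD40 day 2 a held 10.1% of the Kupffer day 0 mean against 1.65% to 2.44% in the other 3, and the difference (log2 fold change -4.65, SE 0.60, with adjusted p = 0.000136) became -5.63 without it. Igfbp7 (chromosome 5, 77349240 to 77408041), an insulin-like growth factor binding protein, was at 150.2, 49.5, 66.9 and 50.6 CPM in CD40 day 2, against 4142 and 4323 CPM in Kupffer day 0. The pattern was the same with a smaller gap between library a and the rest (log2 fold change -5.74, SE 0.39, with adjusted p = 2.95e-06). Sparc (chromosome 11, 55394500 to 55423183), a matrix glycoprotein that stellate cells also make, was at 118, 24.0, 20.03 and 13.7 CPM in CD40 day 2, against 967 and 922 CPM in Kupffer day 0. For Sparc, the difference (log2 fold change -4.47, SE 0.65, with adjusted p = 0.000293) became -5.65 without library a. Vwf (chromosome 6, 125546774 to 125686679), von Willebrand factor of large-vessel endothelium and platelets, had 1, 1, 5 and 5 counts in CD40 day 2 and 2 and 3 in Kupffer day 0. Its groups overlapped, it was below the filter, and with no filter its log2 fold change was -0.08 ± 1.01 SE (adjusted p = 0.957).

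Some of these counts may include reads of overlapping genes, since the use of strand in counting is not given. Exons of Nrp1, Ramp2 and Egfl7 overlap those of another annotated gene on the same strand (Mir1903 for Nrp1, Vps25 for Ramp2, Gm20532 and Mir126a for Egfl7). Exons of Stab2, Clec4g, Eng, Sox17, Egfl7 and Igfbp7 overlap a gene on the opposite strand, among them Fpgs for Eng, Agpat2 for Egfl7 and Polr2b for Igfbp7. The values of these 8 genes are uncertain to that extent.

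Within CD40 day 2, library a had the highest level for 30 of the 37 genes tested, b for 3, c for 1 and d for 3. The median remaining level was 5.80% of the Kupffer day 0 mean in a, 1.83% in b, 2.10% in c and 1.65% in d. The excess of library a was uneven across genes. The level in a was divided by that in the other 3 libraries together, over 33 genes with at least 20 counts in CD40 day 2. This ratio had a median of 2.29, and its 95% counting interval lay above 1 for 25 genes. Replicate libraries differed by more than counting noise. The share of all genes with such an interval, or with their highest level in library a, was not measured. Both counts therefore only describe the genes listed. Lyve1 had the highest ratio, 9.30 (95% counting interval 5.76 to 15.4), followed by Sparc with 6.46 (95% counting interval 4.87 to 8.598) and Ramp2 with 5.40 (95% counting interval 3.69 to 7.94). Plvap had 4.97 (95% counting interval 2.86 to 8.72) and Egfl7 4.93 (95% counting interval 3.97 to 6.12). At the other end stood Dnase1l3 with 1.196 (95% counting interval 1.05 to 1.36), Nrp1 with 0.806 (95% counting interval 0.587 to 1.09) and Cd36 with 0.660 (95% counting interval 0.384 to 1.08). The scavenger genes Stab2, with 1.90 (95% counting interval 1.19 to 2.96), and Mrc1, with 1.78 (95% counting interval 1.08 to 2.86), lay between.

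**Figure D3:**
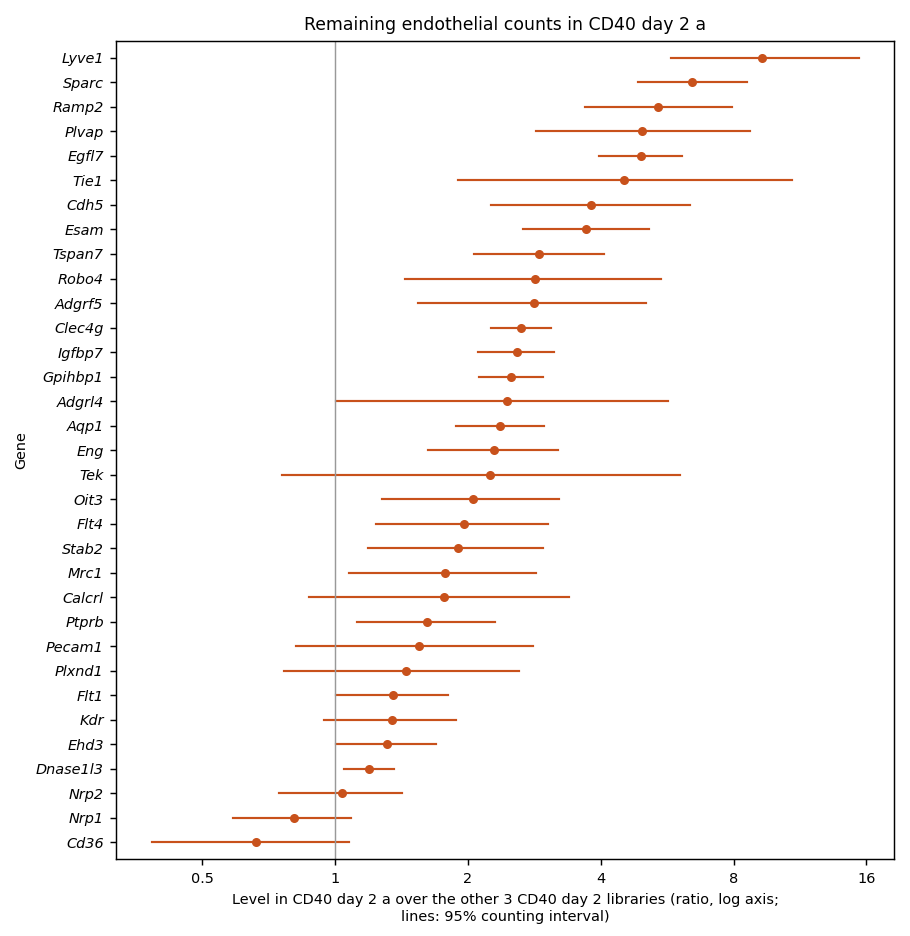
Level in CD40 day 2 a over that in CD40 day 2 b, c and d together (horizontal log axis) for the 33 genes with at least 20 counts in CD40 day 2; lines are 95% counting intervals, and the grey line marks equal levels. The ratio runs from 0.660 for Cd36 to 9.30 for Lyve1.

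The same ratio was measured over the marker lists of other cells. Its median was 1.67 over 21 other endothelial genes, with the interval above 1 for 11 and below 1 for 1. Among lists of other cells with at least 4 such genes, the median was 1.18 over 8 Kupffer cell markers, 0.878 over 5 stellate cell markers, 1.86 over 6 hepatocyte markers, 1.11 over 8 classical monocyte markers and 0.977 over 5 neutrophil markers. In that order of lists, the interval lay above 1 for 1, 0, 3, 5 and 1 of the markers. Erythroid markers departed the other way, with a median of 0.190 over 4 genes and the intervals of all 4 below 1. The 5 listed erythroid genes took 0.00803%, 0.00675%, 0.0273% and 0.0745% of counts in CD40 day 2 a to d, against 0.0200% and 0.00697% in Kupffer day 0. Tm4sf1, Mmrn2, S1pr1 and Ecscr, with ratios of 10.8, 7.205, 5.21 and 5.01, were the highest of the other endothelial genes. They were picked out after their values were seen. The lowest ratio in that list was 0.385, for Ace, with its interval below 1. What set library a apart was not tested.

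Of 25 other endothelial genes, all tested, 23 were lower, 1 higher and 1 not called, with a median of -4.46. Clec14a, an endothelial lectin-like receptor, was at 9.10, 8.49, 5.01 and 5.36 CPM in CD40 day 2, against 587 and 584 CPM in Kupffer day 0 (log2 fold change -6.47, SE 0.23, with adjusted p = 1.502e-07). Sdpr, a protein of caveolae, was at 9.10, 7.07, 8.65 and 7.15 CPM in CD40 day 2, against 697 and 632 CPM in Kupffer day 0 (log2 fold change -6.35, SE 0.18, with adjusted p = 1.502e-07). Gpr182, an endothelial receptor for chemokines, was at 23.7, 9.90, 9.56 and 6.55 CPM in CD40 day 2, against 783 and 799 CPM in Kupffer day 0 (log2 fold change -6.05, SE 0.34, with adjusted p = 1.13e-06). Procr, the endothelial protein C receptor, went the other way at 281, 136, 223 and 110.2 CPM in CD40 day 2, against 15.5 and 16.7 CPM in Kupffer day 0. The groups did not overlap for Procr, and it was higher in all 4 CD40 day 2 libraries (log2 fold change 3.55, SE 0.45, with adjusted p = 0.000130). Ace, the angiotensin-converting enzyme, was not called (log2 fold change 0.50, SE 0.50, with adjusted p = 0.421).

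Genes known to mark either end of the sinusoid in the mouse were mostly lower in CD40 day 2. Of 6 genes of the side near the central vein, 6 were lower, with a median of -5.73, and of 5 of the portal side 4 were lower, with a median of -5.71. Wnt2, a Wnt ligand of central-side endothelium, was at 17.3, 5.66, 9.56 and 13.7 CPM in CD40 day 2, against 834 and 714 CPM in Kupffer day 0 (log2 fold change -6.02, SE 0.27, with adjusted p = 4.12e-07). Rspo3, an enhancer of Wnt signalling, was at 0.910, 1.41, 2.73 and 1.79 CPM in CD40 day 2, against 90.7 and 238 CPM in Kupffer day 0. Its Kupffer day 0 libraries differed, and its difference (log2 fold change -6.32, SE 0.47, with adjusted p = 5.00e-06) became -5.51 without Kupffer day 0 b. Ltbp4, a latent TGF-beta binding protein of the portal side, was at 10.01, 7.07, 5.46 and 6.55 CPM in CD40 day 2, against 335 and 439 CPM in Kupffer day 0 (log2 fold change -5.77, SE 0.24, with adjusted p = 3.00e-07). Adam23, of the ADAM family of membrane proteins, was at 3.64, 1.41, 3.19 and 0.596 CPM in CD40 day 2, against 104 and 148 CPM in Kupffer day 0 (log2 fold change -5.71, SE 0.37, with adjusted p = 2.10e-06). Msr1, a scavenger receptor that macrophages also express, was not called (log2 fold change -0.45, SE 0.44, with adjusted p = 0.415). Of the lymphatic endothelial genes, 2 were in the table and 0 had enough counts for a test.

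Of 12 Notch pathway genes, 6 were tested, 4 lower and 2 higher, with a median of -3.24. Dll4, a Notch ligand of endothelium, was at 3.64, 0, 0 and 0.596 CPM in CD40 day 2, against 41.3 and 44.6 CPM in Kupffer day 0. The fall of Dll4 (log2 fold change -5.43, SE 0.63, with adjusted p = 7.55e-05) rested on few counts in CD40 day 2, and was -7.12 without CD40 day 2 a and -4.79 without c. Notch1 was at 18.2, 2.83, 11.4 and 13.1 CPM in CD40 day 2, against 90.1 and 142 CPM in Kupffer day 0 (log2 fold change -3.24, SE 0.36, with adjusted p = 5.72e-05). The target gene Hes1, picked out after its values were seen, was at 46.4, 11.3, 41.9 and 82.8 CPM in CD40 day 2, against 518 and 380.2 CPM in Kupffer day 0 (log2 fold change -3.23, SE 0.43, with adjusted p = 0.000179). Notch2, a receptor used by many cell types, rose, at 24.6, 29.7, 36.4 and 34.5 CPM in CD40 day 2, against 16.1 and 13.9 CPM in Kupffer day 0 (log2 fold change 1.05, SE 0.28, with adjusted p = 0.0102). Its call was lost without either Kupffer day 0 library (adjusted p = 0.0693 without a and 0.0608 without b). Rbpj, the DNA-binding factor of the pathway, rose as well (log2 fold change 1.12, SE 0.30, with adjusted p = 0.0105), and that call was lost without Kupffer day 0 a (adjusted p = 0.123).

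**Figure D4:**
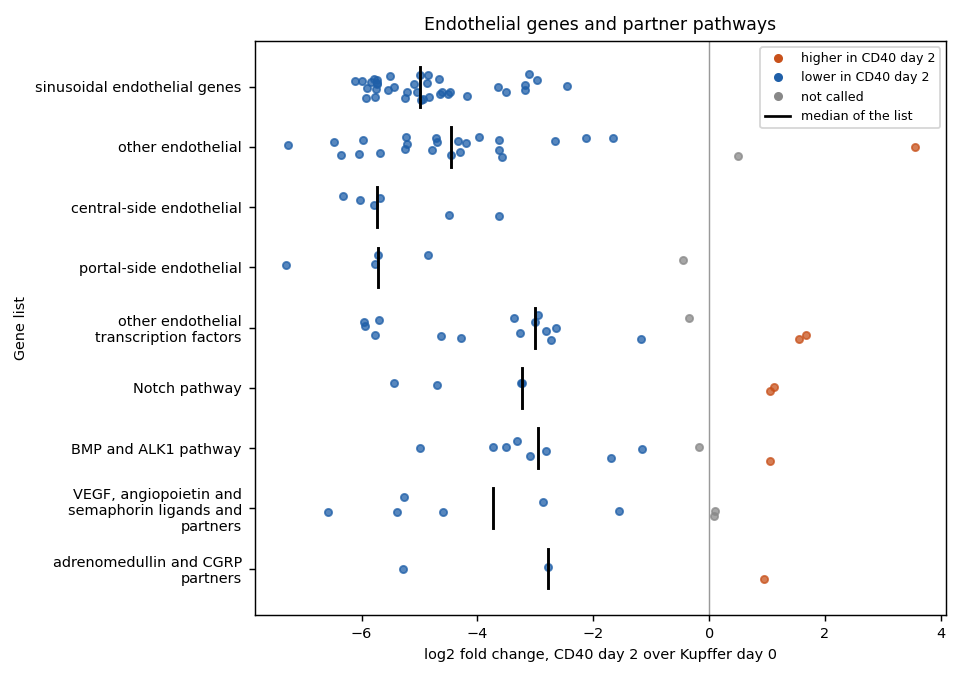
Log2 fold change of CD40 day 2 over Kupffer day 0 (horizontal axis) for each gene tested, by list (rows), with a black bar at each list's median; the height of a point within its row is random. The 37 sinusoidal endothelial genes tested and the central-side genes are lower. Each of the other lists, that of other endothelial genes included, holds genes that rose or were not called, such as Procr, Msr1, Ramp1, Vegfa, Id2, Lyl1 and Rbpj.

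Promoter sequences show what lies at the starts of the genes with the largest and the smallest falls. RefSeq promoters of build GRCm38.p6, which run from 250 bases before to 50 bases after a start, were matched by symbol for 26 of 40 genes, Cldn5 among them, with 31 promoters in all. Lyve1, Oit3, Dnase1l3, Ptprb, Cdh5, Pecam1, Esam, Ramp2, Gpihbp1, Plvap, Gata4, Sox17, Sox18 and Vwf were not matched. Capitals mark AGGAAG, a core motif of ETS factors, or its reverse complement CTTCCT. The first 3 sequences are those of Emcn (chr3:137340828-137341127, plus strand), Ehd3 (chr17:73804591-73804890, plus strand) and Stab2 (chr10:87007893-87008192, minus strand), the largest falls among the genes matched. The last 3 are those of Plxnd1 (chr6:115994956-115995255, minus strand), Flt1 (chr5:147725962-147726261, minus strand) and Nrp2 (chr1:62703067-62703366, plus strand), the smallest falls.
Emcn: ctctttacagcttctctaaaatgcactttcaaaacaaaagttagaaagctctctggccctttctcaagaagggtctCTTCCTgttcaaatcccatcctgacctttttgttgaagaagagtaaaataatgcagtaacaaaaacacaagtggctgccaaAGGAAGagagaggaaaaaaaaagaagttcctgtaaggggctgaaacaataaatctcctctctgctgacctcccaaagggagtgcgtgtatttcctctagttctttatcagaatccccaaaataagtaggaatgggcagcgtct
Ehd3: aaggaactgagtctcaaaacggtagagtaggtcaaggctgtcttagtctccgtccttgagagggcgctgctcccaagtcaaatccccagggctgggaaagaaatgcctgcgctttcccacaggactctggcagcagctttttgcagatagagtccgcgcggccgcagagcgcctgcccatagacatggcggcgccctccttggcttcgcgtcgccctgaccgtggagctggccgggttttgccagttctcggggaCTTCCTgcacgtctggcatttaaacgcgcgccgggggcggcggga
Stab2: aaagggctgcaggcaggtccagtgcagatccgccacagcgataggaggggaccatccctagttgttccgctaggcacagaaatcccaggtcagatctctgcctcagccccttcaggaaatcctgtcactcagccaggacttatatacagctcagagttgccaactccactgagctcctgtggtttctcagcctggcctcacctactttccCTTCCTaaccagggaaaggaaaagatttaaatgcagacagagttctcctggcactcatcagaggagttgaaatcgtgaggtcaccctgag
Plxnd1: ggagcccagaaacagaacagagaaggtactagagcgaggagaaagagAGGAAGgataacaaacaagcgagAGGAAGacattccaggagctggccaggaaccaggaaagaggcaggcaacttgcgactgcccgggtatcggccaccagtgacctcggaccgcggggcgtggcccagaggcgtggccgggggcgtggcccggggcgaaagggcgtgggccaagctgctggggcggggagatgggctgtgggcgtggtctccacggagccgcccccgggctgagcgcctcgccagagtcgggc
Flt1: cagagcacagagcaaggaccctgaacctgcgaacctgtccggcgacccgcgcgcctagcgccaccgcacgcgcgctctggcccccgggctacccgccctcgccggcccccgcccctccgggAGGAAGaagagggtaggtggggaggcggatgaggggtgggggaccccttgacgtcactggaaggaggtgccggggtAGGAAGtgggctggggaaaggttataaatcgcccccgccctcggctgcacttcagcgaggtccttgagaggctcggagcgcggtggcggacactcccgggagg
Nrp2: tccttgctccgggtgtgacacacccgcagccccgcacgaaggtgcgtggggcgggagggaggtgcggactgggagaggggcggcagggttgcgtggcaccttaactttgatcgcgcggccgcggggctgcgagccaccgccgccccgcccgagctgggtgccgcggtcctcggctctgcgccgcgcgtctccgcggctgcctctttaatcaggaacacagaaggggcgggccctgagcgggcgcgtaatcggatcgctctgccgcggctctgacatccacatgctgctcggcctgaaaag

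The ETS motif stood once in Ehd3 and in Stab2, on 2 places in Emcn, Plxnd1 and Flt1, and on none in Nrp2. It was present in 58.1% of the 31 promoters of the sinusoidal endothelial genes (in 17 of 26 genes), against 35.4% of 32851 promoters of that length. The GATA motif searched, AGATAA, was present in 6.45% of the promoters of these genes, against 11.2% of all promoters. The SOX motif searched, AACAAT, was present in 16.1% of the promoters of these genes, against 10.7% of all promoters. The motif of Krüppel-like factors searched, CCACCC, was present in 32.3% of the promoters of these genes, against 31.5% of all promoters. Both strands were searched, and none of the 4 motifs contains another. A match is a description of these letters only.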

How the data were processed

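The authors deposited raw counts, whole numbers per gene symbol, in 1 table of 25919 rows and 12 columns. The submitters' processing notes name GRCm38.p6 as the build and DESeq2 in version 1.22.2. Not given in the sources used here are the aligner, the counter, the annotation and whether reads or molecular identifiers were counted. Column names give a group but no replicate number, so the letters a to d follow the order of the table and only name libraries. No value was read by gene from the other 6 columns (Kupffer cells at day 7, Ly6C CD40-negative cells at day 2), because 2 of them fall along the table with 1 step up, although its rows are ordered by Kupffer day 0 a. In the table, 17 symbols had become dates, with 0.0846% to 0.151% of a library's counts in the 6 libraries compared. Replicate libraries differed by more than counting noise (chi-square of 2.902 to 10.1 per degree of freedom).

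The 6 libraries were fitted together with edgeR 4.0.16 (R 4.3.3): TMM scaling, filterByExpr with default settings, quasi-likelihood test, two-sided, no block, Benjamini-Hochberg adjustment over 9852 genes. Dividing a log2 fold change by the root of its F gave the standard error. The procedure was tested on simulated data in which every gene had the same spread between libraries, which real genes need not have. It recovered 53% of changes of 1 on the log2 scale and 100% of changes of 3, and called 0.127% of unchanged genes. How well genes of larger spread are called was not measured. Alternatives were other scalings and filters, DESeq2 1.42.0, limma 3.58.1 (voom) and leaving out each library. Wilson intervals were computed with scipy 1.17.1. The genes, lists and naming rule (levels of a sinusoidal endothelial gene where a group's mean is at least 50 CPM; in other endothelial and pathway lists, genes taken from the 3 lowest adjusted p, not all of which are named, those that went against their list or were not called, and those said to be picked out later) were chosen with earlier results of these data known.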

Additional observations from a re-analysis of the deposited data

Results flagged for a closer look

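Within CD40 day 2, 15 of 72 genes examined had 1 library far from the other 3 by Dixon's ratio of the gap to the range, 13 of them sinusoidal endothelial genes. Chance flags about 1 in 20, and the genes share their libraries, so these are not independent. CD40 day 2 a was the high library for 12. There, Lyve1 stood at 52.8 CPM, Stab2 at 27.3, Mrc1 at 23.7 and Clec4g at 241 CPM. Among receptors and junction genes, Tie1 was at 11.8 CPM and Cdh5 at 28.2 CPM. Gpihbp1 was at 206 CPM, Plvap at 28.2 CPM, Sox18 at 7.28 CPM, Egfl7 at 172 CPM and Sparc at 118 CPM. The Notch ligand gene Dll4 was at 3.64 CPM. CD40 day 2 b was the low library for Nrp2 at 14.1 CPM and the high one for Id2 at 1000.2 CPM. CD40 day 2 c was the high library for Erg at 0.455 CPM, which is 1 count against 0 in the other 3.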

How the results depend on the processing

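No paired analysis was possible because the columns carry no replicate numbers. The 37 sinusoidal endothelial genes tested kept their direction and their call in 475 of 475 alternative values (log2 fold change -6.50 to -2.17, largest adjusted p 0.00759). The number lower was 37 in each alternative except with at least 10 counts in 4 libraries (31 of 31, since Tek, Tie1, Emcn, Gata4, Sox17 and Sox18 were left out) and with no filter (38 of 39, with Erg). Of all genes, 26.4% were lower with at least 10 counts in 4 libraries, and 3701 of 20783 were lower with no filter. Adjusted p-values with no filter were far smaller than in the main fit, as for Lyve1, so calls of that fit, Erg included, are not comparable to the main ones. The median of the sinusoidal endothelial genes, -4.99, ranged from -5.65 without CD40 day 2 a to -4.79 without CD40 day 2 c. The number of all genes called, 5262, ranged from 3206 to 5514 when a library was left out, the lowest without Kupffer day 0 a, where 1 library stands alone and is assumed to vary like the others. Then 9 listed genes that other liver cells also express were left out together: Mrc1, Cd36, Nrp1, Nrp2, Aqp1, Pecam1, Igfbp7, Sparc and Vwf. Without them, the mean share of counts was 0.0947% in CD40 day 2 and 3.44% in Kupffer day 0, against 0.126% and 4.40% with them. Flt1 and Esam, which monocytes or platelets also carry, were kept in, so what remains is not endothelium only. Scaling by total counts shifted the median of all genes from -0.10 to -0.27. Of 421 alternative values of the other named genes, 413 kept their side of the threshold. A value that passed the threshold neither in the main fit nor in the alternative was counted as kept whatever its direction. The exceptions stand beside Ramp1, Notch2, Rbpj, Id2, Etv6 and Lmo2. The cause of these changes was not tested. Depth limits Emcn, Gata4, Erg, Vwf, Dll4, Plxna2, Adm, Rspo3, Adam23 and Itga2b, each with at most 13 counts in CD40 day 2.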

Other observations

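Markers of hepatocytes, neutrophils and platelets were measured beside the endothelial genes. Hepatocyte markers took 0.00896% to 0.0182% of counts in CD40 day 2, against 0.0556% and 0.125% in Kupffer day 0 a and b, and 6 of 7 tested were lower in CD40 day 2. Neutrophil markers took 0.0853% to 0.167% in CD40 day 2, against 0.0936% and 0.310% in Kupffer day 0 a and b. For the 37 sinusoidal endothelial genes tested, the level in Kupffer day 0 a over that in b had a median of 0.958 and ran from 0.640 to 1.62. Of the platelet markers, 4 were in the table and 1 had enough counts for a test. That gene, Itga2b, the platelet integrin chain, was at 3.64, 4.24, 2.28 and 0.596 CPM in CD40 day 2, against 10.9 and 11.1 CPM in Kupffer day 0, and Pf4 was at 0 counts in all 6 libraries.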
